A study of Rattus norvegicus with 10 samples.

Results

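The 10 genes described here mark the cells of small brain blood vessels, and they were chosen by name: Cldn5, Flt1, Kdr, Pecam1, Vwf, Tek, Cdh5, Pdgfrb, Abcb1a and Slc2a1. All 10 were present among the 17168 gene symbols of the deposited tables, and all 10 passed the filter on low counts that left 11791 genes. The tissue was the left hippocampus, removed at 11 months of age from 10 female TgF344-AD rats perfused with saline, and its mRNA was sequenced. The 5 untreated animals ate ordinary rodent chow. The 5 RG2833 animals ate chow containing 750 mg of RG2833 per kg for 6 months, beginning at 5 months of age. Food dye marked the drug chow. RG2833 inhibits the histone deacetylases HDAC1 and HDAC3. All animals of both groups carry the transgenes of this Alzheimer's disease model, which in this line are mutant human amyloid precursor protein and presenilin genes driven by the mouse prion promoter. No animals without the transgenes are compared here, so the values describe the drug within the transgenic line.

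Endothelial cells line the brain's capillaries and form the blood-brain barrier. They are sealed to each other by tight and adherens junctions, carry nutrient carriers and drug-efflux pumps in their membranes, and respond to vascular endothelial growth factor (VEGF) and angiopoietins. Pericytes are wrapped around the capillary wall and are recruited by platelet-derived growth factor B (PDGF-B) from the endothelium.

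None of the 10 genes passed the test for a treatment effect, although all 10 had a log2 fold change (log2 ratio of RG2833 over untreated) below 0. With edgeR's quasi-likelihood test and Benjamini-Hochberg adjustment over all tested genes, 0 of the 10 genes reached an adjusted p under 0.05, against 2.67% of all tested genes called lower and 2.41% called higher in RG2833 animals. At an unadjusted p under 0.05, 5 of the 10 were lower, against 12.7% of all tested genes. These 5 were Tek, Cldn5, Kdr, Abcb1a and Pecam1. The median log2 fold change of the 10 genes was -0.28, and that of all tested genes was -0.0035. DESeq2's Wald test called 2 of the 10, Cldn5 (adjusted p = 0.0354) and Tek (adjusted p = 0.0246), against 5.75% of all genes called lower by that test. limma-voom called 0 of the 10 and 549 of all 11791 genes in either direction. limma trend on the deposited CPM also called 0 of the 10, and 609 or 576 of all genes at a pseudocount of 1 or 0.1. At an edgeR adjusted p under 0.1, Cldn5 and Tek also counted, against 6.51% of all tested genes called lower. Because this is bulk tissue, fewer vascular cells and less RNA per vascular cell cannot be told apart.

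Promoter sequence in the RefSeq table of build GRCr8 was matched by symbol for 5 of the 10 genes. These were Abcb1a, Cldn5, Flt1, Kdr and Slc2a1. The deposited counts were made on build rn6, so these coordinates belong to the sequence table alone. The 250 bases before the annotated start are shown for 3 of the 5 genes, those with an unadjusted p under 0.05 above, chosen after their values were seen. Capitals mark matches, on either strand, to the GC box GGGCGG and to the ETS-type motifs CAGGAA and CCGGAA. ETS factors such as Erg and Fli1 are known regulators of endothelial genes, and GC boxes bind Sp and Klf factors. Cldn5 is at chr11:95718599-95718848 on the minus strand, Kdr at chr14:32571813-32572062 on the plus strand, and Abcb1a at chr4:26397649-26397898 on the minus strand.
Cldn5: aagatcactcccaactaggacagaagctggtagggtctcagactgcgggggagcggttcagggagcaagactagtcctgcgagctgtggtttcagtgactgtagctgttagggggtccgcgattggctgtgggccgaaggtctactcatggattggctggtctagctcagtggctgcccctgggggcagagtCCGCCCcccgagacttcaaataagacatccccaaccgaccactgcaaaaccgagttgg
Kdr: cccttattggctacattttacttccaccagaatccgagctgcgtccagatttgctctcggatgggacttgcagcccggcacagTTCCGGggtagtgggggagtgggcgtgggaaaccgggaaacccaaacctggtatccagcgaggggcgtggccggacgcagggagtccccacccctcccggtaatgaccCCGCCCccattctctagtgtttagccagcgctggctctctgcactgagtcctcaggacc
Abcb1a: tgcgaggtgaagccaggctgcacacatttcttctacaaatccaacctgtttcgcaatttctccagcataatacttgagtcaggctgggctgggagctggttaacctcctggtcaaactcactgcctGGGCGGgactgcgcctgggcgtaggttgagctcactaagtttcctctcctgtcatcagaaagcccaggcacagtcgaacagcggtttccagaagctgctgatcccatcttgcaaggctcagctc

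Each of the 3 windows held 1 GGGCGG match, which 32.4% of 27457 promoter windows of the same length also held at least once. Kdr alone of the 5 genes held a CCGGAA match, present in 13.4% of all windows, and 0 of the 5 held CAGGAA, present in 24.6%. Flt1 and Slc2a1, not printed, held 3 GGGCGG matches each. The SOX-type motif AACAAT was found in 0 of the 5 windows and in 10.3% of all windows. The TATA box TATAAA was found in Flt1 only among the 5, and in 13.1% of all windows. No printed match overlapped another.

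The receptors for VEGF and angiopoietins are described before the junction, transport and pericyte genes, with all levels in CPM (counts scaled to library size, after TMM scaling, which assumes that most genes do not change). Tek encodes Tie2, the angiopoietin receptor of endothelial cells. In untreated replicates 1 to 5 the Tek level was 21.2, 31.7, 32.3, 25.8 and 26.3 CPM, and in RG2833 replicates 1 to 5 it was 15.7, 20.1, 21.4, 22.8 and 21.2 CPM. All 5 RG2833 animals were below the untreated median of 26.3 CPM, and the groups overlapped only through untreated replicate 1. The log2 fold change was -0.44 ± 0.13 (SE; adjusted p = 0.0693 in edgeR). Without untreated replicate 4 it was -0.47 and passed (adjusted p = 0.0494 in edgeR), in a fit that called 6.3% of all tested genes lower. Tek passed in only this 1 of the 10 fits that each left out an animal. Leaving out untreated replicate 3 instead gave -0.38 (adjusted p = 0.152 in edgeR).

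Kdr encodes VEGF receptor 2, the main signalling receptor for VEGF-A on endothelium. Its level was 14.99, 14.98, 21.7, 14.5 and 14.1 CPM in untreated replicates 1 to 5 and 11.9, 12.04, 12.7, 12.9 and 13.3 CPM in RG2833 replicates 1 to 5. Kdr was the only one of the 10 genes whose groups did not overlap, a separation shown in this direction by 3.47% of all tested genes and in either direction by 7.27%. Its log2 fold change was -0.35 ± 0.13 (SE; adjusted p = 0.111 in edgeR). Untreated replicate 3 lay well above the other 4 untreated animals, and without it the log2 fold change was -0.23 (adjusted p = 0.207 in edgeR).

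Flt1 encodes VEGF receptor 1, a high-affinity receptor that also acts as a decoy for the ligand. Its level was 34.9, 45.7, 64.6, 50.7 and 47.5 CPM in untreated replicates 1 to 5 and 35.01, 40.0, 45.1, 41.8 and 41.8 CPM in RG2833 replicates 1 to 5. The groups overlapped, since untreated replicate 1 was below all 5 RG2833 animals. Flt1 had a log2 fold change of -0.26 ± 0.13 (SE; adjusted p = 0.255 in edgeR). It was -0.14 without untreated replicate 3 (adjusted p = 0.503 in edgeR), and it passed in 0 of the 10 fits that each left out an animal.

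**Figure D1:**
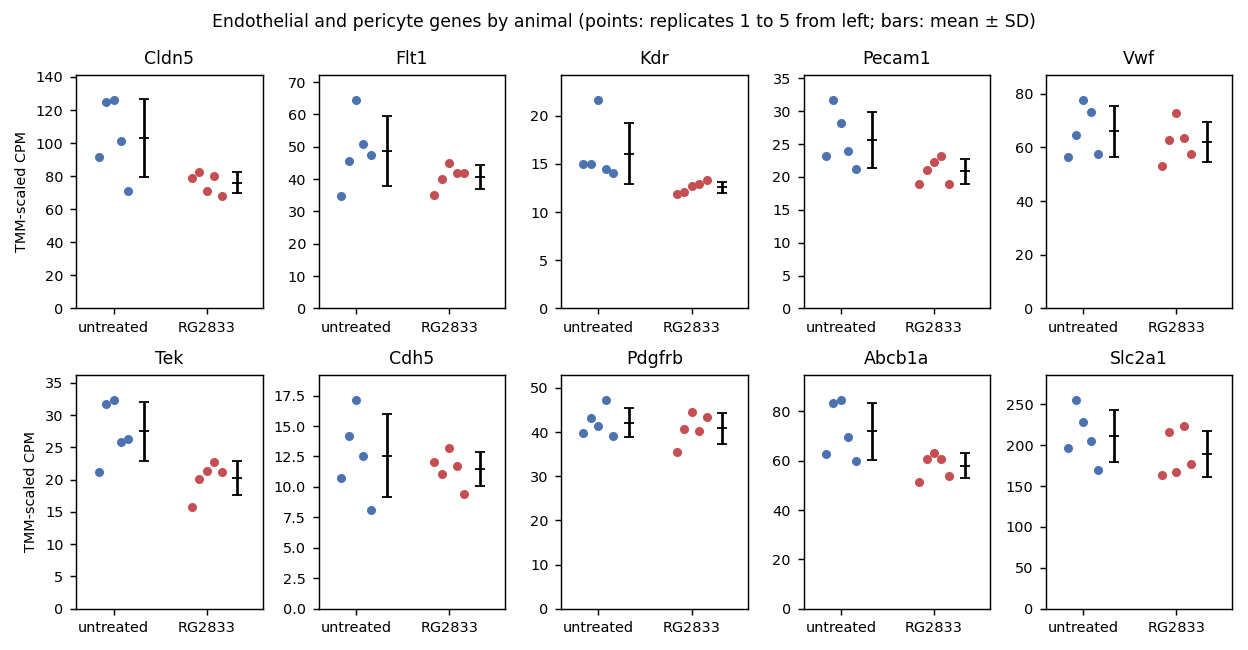
TMM-scaled CPM of each of the 10 genes (vertical axes, each starting at 0) in the 5 untreated animals (blue) and the 5 RG2833 animals (red), with the mean ± SD beside the points. The groups are apart for Kdr only, and the RG2833 points are closer together than the untreated points for 9 of the 10 genes when spread is taken relative to the mean, as for 75.5% of all tested genes.

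Among the junction genes, Cldn5 encodes claudin 5, the dominant tight junction protein of brain endothelium. Its level was 91.4, 125, 126, 101 and 70.9 CPM in untreated replicates 1 to 5, and 79.1, 82.2, 70.9, 79.9 and 67.8 CPM in RG2833 replicates 1 to 5. Untreated replicate 5 lay within the RG2833 range, and the other 4 untreated animals lay above it. The log2 fold change was -0.44 ± 0.14 (SE; adjusted p = 0.0809 in edgeR). Without untreated replicate 5, the lowest untreated animal, it was -0.55 and passed (adjusted p = 0.0132 in edgeR). That fit called 4.37% of all tested genes lower. Cldn5 passed in only this 1 of the 10 fits that each left out an animal. Leaving out untreated replicate 3 instead gave -0.36 (adjusted p = 0.175 in edgeR).

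Pecam1 encodes CD31, an adhesion molecule at endothelial cell contacts. Its level was 23.2, 31.8, 28.3, 23.9 and 21.3 CPM in untreated replicates 1 to 5 and 18.9, 21.0, 22.2, 23.2 and 18.9 CPM in RG2833 replicates 1 to 5. All 5 RG2833 animals were below the untreated median of 23.9 CPM and the ranges overlapped. Its log2 fold change was -0.30 ± 0.12 (SE; adjusted p = 0.138 in edgeR). Cdh5 encodes VE-cadherin, the adherens junction cadherin of endothelium. It was 10.8, 14.2, 17.1, 12.6 and 8.14 CPM in untreated replicates 1 to 5 and 12.02, 11.1, 13.2, 11.7 and 9.42 CPM in RG2833 replicates 1 to 5. The RG2833 range lay inside the untreated range. The log2 fold change was -0.13 ± 0.18 (SE; adjusted p = 0.679 in edgeR), and without untreated replicate 3 it was 0.000626.

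Vwf encodes von Willebrand factor, a clotting glycoprotein stored in endothelial granules. Its level was 56.5, 64.7, 77.7, 73.3 and 57.5 CPM in untreated replicates 1 to 5 and 53.1, 62.8, 72.9, 63.4 and 57.5 CPM in RG2833 replicates 1 to 5. These ranges overlapped nearly throughout, and the log2 fold change of -0.09 ± 0.11 was smaller than its SE (adjusted p = 0.636 in edgeR). Without untreated replicate 3 it was -0.03.

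The transporters are Abcb1a, which encodes P-glycoprotein, the drug-efflux pump of the luminal membrane, and Slc2a1, which encodes the glucose transporter GLUT1. The Abcb1a level was 62.6, 83.4, 84.7, 69.7 and 59.8 CPM in untreated replicates 1 to 5 and 51.5, 60.9, 63.3, 60.7 and 53.9 CPM in RG2833 replicates 1 to 5. All 5 RG2833 animals were below the untreated median of 69.7 CPM, and untreated replicates 1 and 5 lay within the RG2833 range. The log2 fold change was -0.31 ± 0.11 (SE; adjusted p = 0.101 in edgeR). Without untreated replicate 5, the lowest untreated animal, it was -0.37 and passed (adjusted p = 0.0480 in edgeR). Abcb1a passed in only this 1 of the 10 fits that each left out an animal. Leaving out untreated replicate 3 instead gave -0.25 (adjusted p = 0.213 in edgeR). The estimated count of Abcb1a was not a whole number in 10 of 10 animals, so its division of reads with similar sequence is uncertain. Its paralog Abcb1b was tested separately (log2 fold change 0.12 ± 0.20, SE; adjusted p = 0.753 in edgeR).

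Slc2a1, which astrocytes also express in a less glycosylated form, was 197, 255, 228, 205 and 170 CPM in untreated replicates 1 to 5. In RG2833 replicates 1 to 5 it was 164, 216, 168, 223 and 177 CPM. In the RG2833 group, replicates 2 and 4 lay above the untreated median of 205 CPM and the other 3 lay below it. The log2 fold change was -0.16 ± 0.12 (SE; adjusted p = 0.451 in edgeR), and without untreated replicate 2 it was -0.08.

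Pdgfrb, the receptor through which pericytes respond to PDGF-B, is the only pericyte gene among the 10. It was 39.8, 43.2, 41.3, 47.3 and 39.0 CPM in untreated replicates 1 to 5 and 35.5, 40.6, 44.4, 40.2 and 43.5 CPM in RG2833 replicates 1 to 5. The ranges overlapped, and its log2 fold change, -0.05 ± 0.08, was the nearest to 0 of the 10 (SE; adjusted p = 0.774 in edgeR). It was 0.000569 without untreated replicate 4 and 0.0021 without RG2833 replicate 1.

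**Figure D2:**
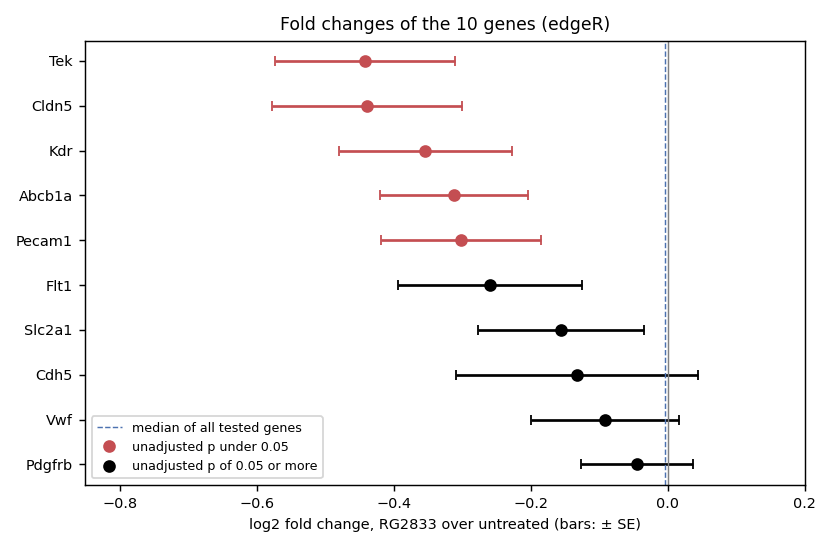
Log2 fold change of each of the 10 genes, RG2833 over untreated, with bars of ± SE from the edgeR fit, ordered by size; red points have an unadjusted p under 0.05. All 10 points lie below 0, from -0.44 for Tek to -0.05 for Pdgfrb, and the dashed line marks the median of all tested genes at -0.0035.

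The animals were also ordered by the 10 genes as a set. For this, log2 CPM was centred on each gene's mean over the 10 animals and averaged over the 10 genes. This level was -0.07, 0.26, 0.39, 0.13 and -0.12 in untreated replicates 1 to 5, and -0.26, -0.09, -0.04, -0.03 and -0.17 in RG2833 replicates 1 to 5. The group means were 0.12 ± 0.22 and -0.12 ± 0.10 (SD, n = 5 each). Untreated replicates 1 and 5 lay among the RG2833 animals. Untreated replicate 3 had the highest untreated value for 7 of the 10 genes and untreated replicate 5 the lowest for 7. RG2833 replicate 1 had the lowest RG2833 value for 8. Leaving out untreated replicate 3 moved the median log2 fold change of the 10 genes from -0.28 to -0.18.

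Depth and library makeup were compared across the same animals. Total estimated counts ran from 8764266 to 11131412 in untreated and from 9535071 to 11311673 in RG2833 animals, and the smallest count of any of the 10 genes in any animal was 77. Ribosomal RNA loci took 2.70% to 5.36% of counts in untreated and 1.13% to 1.96% in RG2833 animals, with no overlap, so this share and the treatment cannot be told apart. The untreated animals with the highest shares, replicates 2 (5.36%) and 3 (5.08%), also had the highest vascular levels, whereas replicate 4 had the lowest untreated share (2.70%) and the next highest vascular level. With the log2 share as a covariate, the median log2 fold change of the 10 genes was -0.06 and 4 of them had a value above 0 (Cldn5, Pecam1, Cdh5 and Slc2a1).

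**Figure D3:**
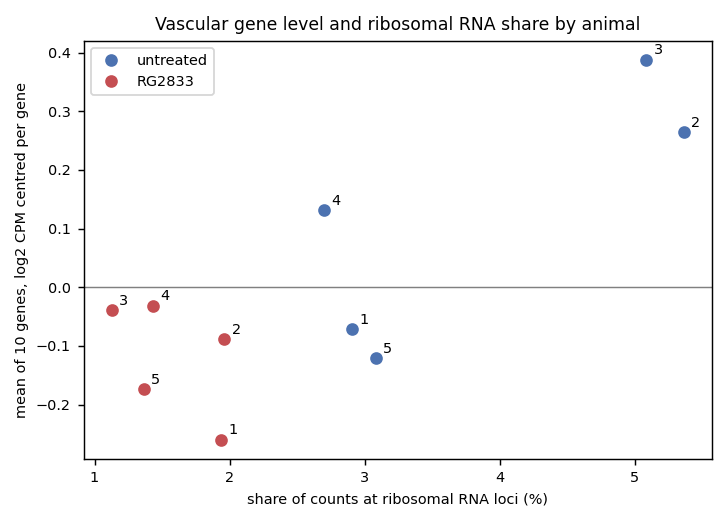
Mean level of the 10 genes (vertical axis, log2 CPM centred per gene) against the percentage of counts at ribosomal RNA loci (horizontal axis) for each animal, numbered by replicate. RG2833 animals (red) lie at shares up to 1.96% and levels up to -0.03, and untreated animals (blue) lie at shares from 2.70%, with replicates 1 and 5 at levels inside the RG2833 range.

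Markers of other cells were summed in CPM over the tested genes of each list. The 8 excitatory neuron genes summed to 4918 to 6802 in untreated and 6925 to 7572 in RG2833 animals, without overlap, and Camk2a, a kinase of excitatory neurons, passed higher (log2 fold change 0.67 ± 0.17, SE; adjusted p = 0.0459 in edgeR). The 8 microglial genes summed to 428 to 695 and 424 to 540, and Aif1, the gene of the microglial protein Iba1, passed lower (log2 fold change -0.74 ± 0.20, SE; adjusted p = 0.0496 in edgeR). The 9 astrocyte genes summed to 5910 to 9291 and 6324 to 8319, and the 8 oligodendrocyte genes to 5873 to 18051 and 9229 to 12488, with 0 called in either list. The 10 genes of perivascular fibroblasts summed to 234 to 494 and 252 to 334, also with 0 called. At an unadjusted p under 0.05, 4 of these 10 were lower (Pdgfra, Dcn, Lum and Lamc3), against 12.7% of all tested genes, while 5 of the 10 had a log2 fold change above 0. By the same measure 4 of the 8 neuronal genes were higher, against 1394 of 11791 over all tested genes, and 2 of 9 astrocyte, 2 of 8 microglial, 3 of 5 choroid plexus, 0 of 8 oligodendrocyte and 0 of 3 red blood cell genes were lower. Dcn, the decorin gene, had a log2 fold change of -1.26 ± 0.35 (SE; adjusted p = 0.0561 in edgeR). Apod, the largest part of the fibroblast sum, was 128 and 161 CPM on average in untreated and RG2833 animals. It was highest in untreated replicates 1 and 4 and in RG2833 replicates 3 and 4, as was Mbp of the oligodendrocyte list. Which cells the Apod RNA came from was not tested, so the sum cannot be read as fibroblast content alone. Red blood cell genes were low, with 3 of 6 tested, sums of 4.55 to 26.2 and 2.29 to 25.9, and the embryonic globin Hbe1 at 0 in all animals. Of 12 choroid plexus genes 5 were tested. They summed to 65.1 to 2776 in untreated and 80.3 to 159 in RG2833 animals. The highest sum was in untreated replicate 1, where Ttr, the transthyretin gene of choroid plexus epithelium, stood at 2381 CPM. Without that animal the log2 fold change of Ttr was 0.74, against -5.10 with all animals. Prlr, the prolactin receptor, passed lower in RG2833 animals (adjusted p = 0.0394 in edgeR). Prlr did not follow Ttr, at 3.55 CPM in untreated replicate 1 and highest, at 4.97 CPM, in untreated replicate 5. With the choroid plexus level as a covariate the median log2 fold change of the 10 vascular genes was -0.34, and without untreated replicate 1 it was -0.35. Leaving out each animal in turn, Camk2a stayed called in 1 of 10 fits, and Aif1 and Prlr in 2 each. The part of the neuronal and microglial differences in the vascular values was not tested.

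Further genes of the vessel wall were taken from lists of general knowledge. Of 26 tested endothelial genes, 2 passed lower and 0 higher, against 2.67% and 2.41% of all tested genes. At an unadjusted p under 0.05, 11 of the 26 were lower, against 12.7% of all tested genes. Their median log2 fold change was -0.34, and 21 of the 26 were below 0. Itm2a, a membrane protein gene enriched in brain endothelium, fell from 67.1 ± 18.1 to 39.9 ± 3.84 CPM (SD over 5 animals) with a log2 fold change of -0.75 ± 0.15 (SE; adjusted p = 0.0218 in edgeR). Eltd1, an adhesion G protein-coupled receptor gene of endothelium, fell from 19.7 ± 3.85 to 12.7 ± 1.99 CPM (log2 ratio -0.63 ± 0.15, SE; adjusted p = 0.0345 in edgeR). The 2 genes of the list with the highest mean CPM over all 10 animals did not pass. S1pr1, the sphingosine-1-phosphate receptor gene, had a log2 fold change of 0.03 and Eng, the endoglin gene, one of -0.14 (adjusted p in edgeR = 0.883 and 0.494). Over the fits that each left out an animal, S1pr1 ran from -0.039 to 0.10 and Eng from -0.21 to -0.029, the latter without untreated replicate 3.

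Of 23 tested barrier transporter genes, 4 passed lower and 0 higher, against 2.67% and 2.41% of all tested genes, while the median log2 fold change was -0.06. At an unadjusted p under 0.05, 8 of the 23 were lower, against 12.7%. Mfsd2a encodes the lysolipid carrier that restrains transcytosis in brain endothelium. It was 31.3 to 41.6 CPM in untreated and 20.9 to 27.4 CPM in RG2833 animals, without overlap, and fell with a log2 fold change of -0.52 ± 0.10 (SE; adjusted p = 0.0183 in edgeR). Slco1a2, an organic anion transporter gene, fell from 78.7 ± 18.5 to 49.8 ± 3.11 CPM (SD over 5 animals; log2 ratio -0.66, adjusted p = 0.0241 in edgeR). Abcg2, the breast cancer resistance protein efflux pump, fell from 26.7 ± 4.49 to 17.4 ± 2.32 CPM (log2 ratio -0.61, adjusted p = 0.0268 in edgeR). Slc38a5, a glutamine carrier gene, fell from 4.15 ± 0.64 to 2.50 ± 0.28 CPM (log2 ratio -0.73, adjusted p = 0.0351 in edgeR). In the whole list 5 of the 23 genes separated the groups in this direction, against 3.47% of all tested genes. These 4 were among the 5, but they were named because they passed on the same animals. The most highly counted genes of the list, Bsg (basigin, log2 fold change 0.18) and Lrp1 (a lipoprotein receptor, 0.09), did not pass (adjusted p in edgeR = 0.2299 and 0.558) and are not specific to vessels. With single animals left out, Lrp1 ran from 0.035 to 0.13.

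**Figure D4:**
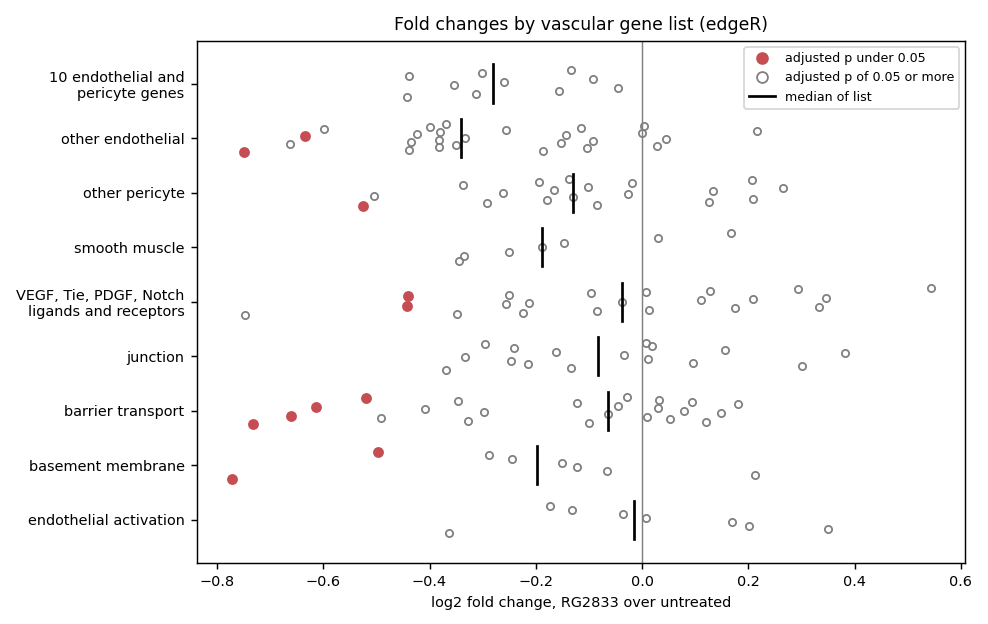
Log2 fold change, RG2833 over untreated, of every tested gene in 9 vascular lists (rows, some genes in more than 1 list), with filled red points for an edgeR adjusted p under 0.05 and a black bar at each list's median. The called genes all lie below 0, and the medians run from -0.34 for other endothelial genes to -0.01 for endothelial activation genes.

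Ligands and receptors of the VEGF, angiopoietin, PDGF and Notch systems were mixed. Of 21 tested genes, 2 passed lower and 0 higher, against 2.67% and 2.41% of all tested genes. At an unadjusted p under 0.05, 4 were lower and 1 was higher, against 12.7% and 1394 of 11791 over all tested genes. Among the 21, 10 had a log2 fold change above 0, and the median was -0.04. Vegfb, a ligand of Flt1, fell from 122 ± 19.8 to 89.7 ± 5.33 CPM (SD over 5 animals; log2 ratio -0.44 ± 0.11, SE; adjusted p = 0.0381 in edgeR). Jag1, a Notch ligand, fell from 11.9 ± 1.43 to 8.77 ± 0.75 CPM (log2 ratio -0.44 ± 0.12, SE; adjusted p = 0.0496 in edgeR). Vegfa, the ligand of Kdr, was 92.7 ± 2.45 and 100.2 ± 11.97 CPM and did not pass (log2 fold change 0.11, adjusted p = 0.419 in edgeR).

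Mural cell genes gave 1 call, against 2.67% of all tested genes called lower. Of 19 tested pericyte genes, Atp13a5, a transporter gene used as a marker of brain pericytes, fell from 16.9 ± 2.02 to 11.7 ± 1.41 CPM (SD over 5 animals; log2 ratio -0.53 ± 0.12, SE; adjusted p = 0.0285 in edgeR) and its groups did not overlap. Of the 19, 3 were lower at an unadjusted p under 0.05, near the 12.7% of all tested genes. The list's median was -0.13, and its most highly counted genes, Cspg4 (-0.26) and Mcam (0.26), did not pass (adjusted p in edgeR = 0.247 and 0.416). With single animals left out, Mcam ran from 0.15 to 0.40. Mcam was highest in untreated replicates 1 and 4 and in RG2833 replicates 3 and 4, as was the oligodendrocyte gene Mbp. Cspg4 was lowest in replicate 1 of each group, as was Pdgfra. In bulk tissue the cells that gave Cspg4 and Mcam RNA cannot be told apart. Of 7 tested smooth muscle genes 0 were called and 1 was lower at an unadjusted p under 0.05. That share is near the 12.7% of all tested genes. Their median log2 fold change was -0.19, with Mylk at -0.19 and Lmod1 at 0.17. Over the fits that each left out an animal, Mylk ran from -0.26 to -0.057 (the latter without untreated replicate 4) and Lmod1 from 0.041 (without RG2833 replicate 2) to 0.29 (without untreated replicate 2).

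For the vascular basement membrane, 2 of 8 tested genes passed lower, against 2.67% of all tested genes, and 3 of the 8 were lower at an unadjusted p under 0.05, against 12.7%. Fn1, the fibronectin gene, fell from 117 ± 21.3 to 82.8 ± 5.47 CPM (SD over 5 animals; log2 ratio -0.50 ± 0.11, SE; adjusted p = 0.0284 in edgeR). Sparc, a collagen-binding matricellular protein gene that glia also express, fell from 790 ± 253 to 463 ± 64.5 CPM (log2 ratio -0.77 ± 0.19, SE; adjusted p = 0.0413 in edgeR). Agrn, the agrin gene, did not pass (log2 fold change -0.29, adjusted p = 0.101 in edgeR), and ran from -0.34 to -0.19 with single animals left out.

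Of 16 other tested junction genes 0 were called, against 2.67% of all tested genes called lower. At an unadjusted p under 0.05, 1 was lower and 2 were higher, near the shares over all tested genes (12.7% lower, and 1394 of 11791 higher). The median log2 fold change was -0.08. The scaffold and catenin genes that lead this list by count, Tjp1 (0.16) and Ctnnb1 (-0.03), are expressed in many cell types and did not pass (adjusted p in edgeR = 0.289 and 0.825). Of 8 tested genes of endothelial activation, such as Vcam1 (log2 fold change -0.17) and Cxcl12 (-0.13), 0 were called and 0 had an unadjusted p under 0.05.

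Calls depended on single animals, among the 11 called vascular genes as among all 599 called genes. Of the 11, the number still called was 5, 4, 2, 11 and 10 when untreated replicate 1, 2, 3, 4 or 5 was left out, and 2, 0, 1, 5 and 1 when RG2833 replicate 1, 2, 3, 4 or 5 was left out. In the same order, 185, 266, 112, 598 and 527 of the 599 stayed called without an untreated animal, and 128, 112, 117, 213 and 98 without an RG2833 animal. Mfsd2a and Itm2a were called in 7 of these 10 fits and Jag1 in 1. The log2 fold changes of the 11 were below 0 in all 10 fits. Their choice as genes called lower with all 10 animals makes this likely in advance. The values ran from -0.57 to -0.46 for Mfsd2a and from -0.82 to -0.57 for Itm2a. With the ribosomal RNA share or 1 surrogate variable as a covariate, 0 of the 11 were called, in fits that called 2 and 5 of all 11791 genes. Under the ribosomal RNA share the log2 fold change was -0.44 for Atp13a5 and -0.38 for Mfsd2a, but -0.14 for Itm2a and 0.12 for Sparc.

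The genes outside the 10 whose pattern over the 10 animals was nearest to the mean vascular level were Bcam, Rbbp9, Uaca, Fndc7 and Spop. The measure was the root mean square difference of centred log2 CPM, which was 0.0744, 0.0790, 0.0844, 0.0902 and 0.0972 for these genes, against 0.275 for the median tested gene. Bcam encodes a laminin-binding adhesion molecule. Its log2 fold change was -0.28 ± 0.13 (SE; adjusted p = 0.188 in edgeR), and 0 of the 5 genes passed, with log2 fold changes from -0.28 to -0.15. The 5 were chosen for a pattern like that of the 10 genes, so values below 0 follow from the choice. Fndc7, at the -0.15 end, reached -0.06 with a single animal left out.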

How the data were processed

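Left hippocampus mRNA libraries of 5 untreated and 5 RG2833 rats were compared. Per the submitters' processing notes, the authors used bcl2fastq 2.17, Bowtie2 2.1.0, RSEM 1.2.15, edgeR and genome build rn6; the gene annotation is not given in the sources used here. The authors deposited RSEM estimated counts without normalization and a TMM-scaled CPM signal made from them. Columns were matched by sample title. Per the labels each group holds 5 rats, 1 library each. In 20 within-group pairs the chi-square per degree of freedom was at least 4.60, above sampling noise.

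Counts were rounded, filtered with filterByExpr and tested with edgeR 4.0.16 (R 4.3.3; quasi-likelihood, TMM, no covariate), called at a Benjamini-Hochberg adjusted p under 0.05. CPM values use the tested genes; a prior count of 2 was added for log2 CPM. The SE was taken as the size of the log2 fold change over the root of the F statistic. The test was tested on simulated data. Alternatives used DESeq2 1.42.0, limma 3.58.1 and sva 3.50.0. Total counts of 8764266 to 11311673 put 3 counts at 0.268 to 0.343 CPM, counting error only.

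The 10 genes and all lists were chosen with earlier results of these data known. From each vascular list the called genes (at most 6, smallest p first) and the 2 with the highest CPM are named, with the 5 genes of nearest pattern. Lists of other cells are given as sums, with called genes and Ttr named. Other named genes were chosen after their values were seen.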

Additional observations from a re-analysis of the deposited data

Results flagged for a closer look

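Among 78 groups of 5 values (in each treatment group, the 10 vascular genes, the called genes named from all lists, the uncalled genes of highest CPM named from 8 vascular lists, and Ttr), 4 held a value whose gap to the nearest other value exceeded Dixon's 95% limit of 0.71 of the group's range, where chance gives about 3.9. In untreated replicate 3, Kdr stood at 21.7 CPM, and the remaining 4 untreated animals lay between 14.1 and 14.99 CPM (ratio 0.880). Itm2a was 98.8 CPM in the same animal against 53.4 to 64.3 CPM (0.760). Cxcl12 stood at 261 CPM in RG2833 replicate 1, compared with 190.5 to 207 CPM (0.762). Ttr stood at 2381 CPM in untreated replicate 1, compared with 3.80 to 14.8 CPM (0.995).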

How the results depend on the processing

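The count of 0 called among the 10 vascular genes became 2 with DESeq2's Wald test and 2 at an adjusted p under 0.1 (Cldn5 and Tek each time). It ran from 0 to 2 over the 10 fits that each left out an animal, with 1 without untreated replicate 4 (6.30% of all genes called lower) and 2 without untreated replicate 5 (4.37%). It was 0 under the other scalings, filters, limma fits, covariates and the replicate block. Of all tested genes 599 were called. DESeq2's Wald test called 1286, the replicate block 180, 1 surrogate variable 5, the ribosomal RNA share 2, the choroid plexus level 129 and an adjusted p under 0.1 called 1466, while leaving out an animal gave 98 to 1556. Genes called lower numbered 0 under the surrogate variable and the ribosomal RNA share in each of the 5 lists that had calls. Under the block and the choroid plexus level they numbered 0 and 2 of other endothelial genes, 0 and 0 of pericyte genes, 2 and 1 of transporters, 0 and 1 of basement membrane genes and 0 and 0 of ligands and receptors. The block kept 2 of the 11 vascular calls and the choroid plexus level 4. DESeq2's Wald test called 4 other endothelial genes. The count was 1 for ligands and receptors with no filter or limma-voom, and for the basement membrane with limma-voom or limma trend at a pseudocount of 0.1. Without single animals they ran from 0 to 6 for other endothelial genes, 0 to 5 for transporters, 0 to 3 for ligands and receptors, 0 to 2 for pericyte and basement membrane genes and 0 to 1 for junctions. With library totals only, 38.3% of calls were higher, against 47.4%. Replicate numbers name different animals, and the correlation of deviations in same-numbered animals ran from -0.32 to 0.15, so the numbers do not pair them.

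The median log2 fold change of the 10 genes, -0.28, lay between -0.35 and -0.18 without single animals and was -0.057 with the ribosomal RNA share. That covariate, whose values separate the groups, also gave log2 fold changes of 0.13 for Cldn5, 0.014 for Pecam1, 0.33 for Cdh5, 0.23 for Slc2a1, 0.30 for Eng, -0.69 for Mcam, 0.00077 for Cspg4, 0.023 for Ctnnb1, -0.070 for Tjp1, 0.12 for Sparc, 0.044 for Agrn, 0.47 for Cxcl12, 0.078 for Vcam1, 0.029 for Bcam, 0.12 for Uaca and 0.20 for Fndc7. With 1 surrogate variable Mcam was -0.065, Ctnnb1 0.072 and Tjp1 -0.027. With the choroid plexus level S1pr1 was -0.0074 and Ttr 0.78. Over single animals left out, values reached 0.74 for Ttr (from -5.90), 0.077 for Cxcl12 (from -0.24), 0.000626 for Cdh5 (from -0.25), 0.0021 for Pdgfrb (from -0.076), 0.029 for Ctnnb1 (from -0.065), and from -0.039 to 0.10 for S1pr1. The cause was not tested. Of 965 recomputed gene values 779 kept their direction and side of the threshold, 150 lost the call, 7 gained it and 29 changed direction, 0 of these while called.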

Other observations

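The coefficient of variation was larger in untreated than in RG2833 animals for 9 of the 10 vascular genes, and for 75.5% of all tested genes. Pdgfrb was the exception, at 7.80% in untreated and 8.59% in RG2833 animals. The median over the 10 genes was 16.7% in untreated and 9.14% in RG2833 animals, and over all tested genes 14.96% and 10.02%. Among the 10 genes the gap was wide for Kdr (19.8% and 4.64%) and Cldn5 (22.8% and 8.24%), and narrow for Slc2a1 (15.3% and 14.7%) and Vwf (14.3% and 11.9%). The difference in spread was not tested.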
